A study of Mus musculus with 69 samples.

Results

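The question addressed here was whether the response of aortic vascular smooth muscle cells (VSMC) to combined metabolic and humoral stress depends on the epidermal growth factor receptor (EGFR). The measure was the log2 effect of ALL stressors against Control in WT VSMC minus the same effect in KO VSMC, taken within sample sets. Its members were the Control and ALL libraries of 4 WT sets (sets 1 to 4) and 3 KO sets (sets 6 to 8), 14 of the 69 RNA-seq libraries of the series, and it was tested for 18164 genes. The fit also held the libraries of the same sets under glucose and fatty acids alone (HG + FFA) and under angiotensin II and catecholamine alone (AII + NA), 28 libraries in all. Endothelial cells (EC) labelled WT, under the same treatments, served only to choose a gene list. All VSMC cultures came from male C57BL/6 mice, each set from its own animal, and the labels put every VSMC library in the same batch. WT VSMC carried an intact Egfr gene. KO VSMC, labelled EGFR-KOsmc, came from mice with floxed Egfr alleles and Cre recombinase driven by the SM22 promoter, so deletion depends on that promoter having been active in a cell. Primary aortic cultures of up to 7 passages were kept without serum for 24 h and then exposed for 24 h. Per the labels, ALL combined glucose at 20 mM, free fatty acids at 100 µM, angiotensin II at 30 nM and epinephrine at 300 nM. The methods of the study name norepinephrine as the catecholamine and give the stated fatty acid concentration for oleate and for palmitate each. Control cultures received no fatty acids, angiotensin II or catecholamine and had the glucose of the low-glucose culture medium, a level the labels do not give, and fatty-acid-free albumin was present in every solution, Control included.

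EGFR is a receptor tyrosine kinase that binds ligands such as HB-EGF and signals through the Ras, ERK and phosphoinositide 3-kinase pathways. In VSMC it is also transactivated by receptors coupled to G proteins, among them the angiotensin II and adrenergic receptors, through ligands shed from the cell surface. VSMC can move between a contractile state, with high expression of actin, myosin and calponin genes under serum response factor (SRF) and its coactivators of the myocardin family, and proliferative or matrix-producing states.

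Libraries held 23238979 to 37801299 counted reads, with a median of 30093005. Levels are given as FPM, reads assigned to a gene per 1000000 library-size-scaled reads, which are not corrected for gene length. Egfr (ENSMUSG00000020122, chromosome 11, 16702198 to 16868158, GRCm39) was at 342.8 ± 83.5 FPM in WT sets (SD, n = 4) and 1.30 ± 0.44 FPM in KO sets (SD, n = 3), which is 0.378% of the WT level. The sets did not overlap. An exact permutation test, two-sided, gave p = 0.0571, below which 4 against 3 sets cannot go. Under ALL stressors Egfr RNA in WT VSMC had a log2FC of -0.23 ± 0.10 (SE), which did not pass (FDR = 0.231).

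The cultures of the 2 genotypes differed before any treatment. The summed level of 6 smooth muscle markers (Acta2, Tagln, Myh11, Cnn1, Smtn, Lmod1) ranged from 324 to 1160 FPM in WT Control, 1030 to 1380 in WT ALL, 911 to 1840 in KO Control and 825 to 1890 in KO ALL. Acta2 made up most of this sum, and Tagln was listed at only 2.74 FPM in WT Control, with 66.7% of its exon length shared with another gene, where reads cannot be assigned to either. Markers of adventitial fibroblasts (Pdgfra, Dcn, Lum, Pi16, Ly6a, Dpt) summed to 2960 to 4730 FPM in WT Control, 1990 to 4240 in WT ALL, 459 to 1210 in KO Control and 424 to 956 in KO ALL. All 6 markers of each of these lists were detected. For mesothelial markers the range was 2.93 to 6.16 FPM in WT Control, 3.34 to 8.04 in WT ALL, 22.5 to 59.0 in KO Control and 37.5 to 89.4 in KO ALL, with Krt8 at 0 in WT ALL and in both KO groups. Macrophage and leukocyte markers summed to 36.9 to 252 FPM in WT Control and 40.5 to 53.6 FPM in KO Control, and endothelial markers to at most 59.6 FPM in any group. In bulk RNA, fewer cells of a type and less RNA per cell cannot be told apart, and the part of these starting levels in the results was not tested.

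In the ALL over Control ratio, the KO pairs of sets 7 and 8 stood apart from the other 5 pairs. In these sets the ratio fell with the GC share of the transcript, with Pearson r = -0.423 and -0.452 across 11583 genes, against 0.224 in KO set 6 and -0.0377 to 0.151 in the WT sets. These correlations are across genes, which are not independent replicates. With genes split into 4 equal groups by GC share, the median log2 ratio of the lowest group was 0.21 in set 7 and 0.29 in set 8, and that of the highest group was -0.19 and -0.25. In set 6 the same medians were -0.06 and 0.05. In sets 7 and 8 r was -0.206 to -0.528 for HG + FFA and AII + NA, ratios that share the Control library with ALL. Values of this size were also present in WT set 3, with r = -0.343 for HG + FFA and 0.356 for AII + NA. For this reason the main results are given also after a GC and length correction of each library, and the gene lists without set 7 or set 8 where their balance moved.

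**Figure D1:**
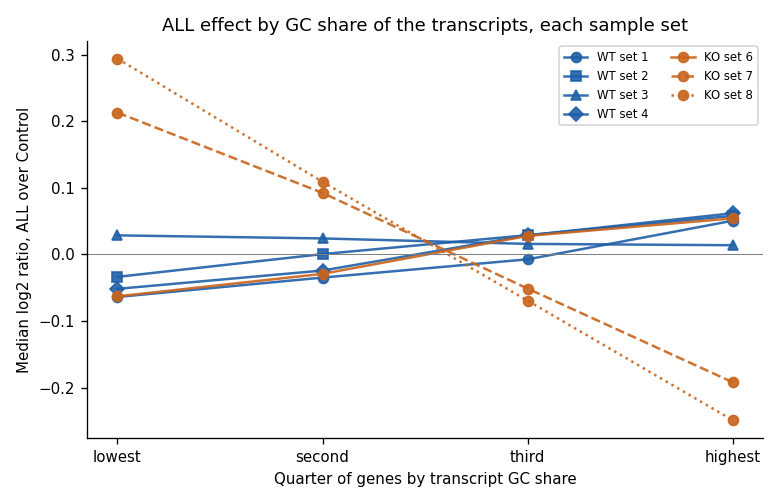
Median log2 ratio of ALL over Control (vertical axis) in 4 equal groups of genes ordered by transcript GC share (horizontal axis), one line for each sample set, blue for WT and orange for KO. The lines of KO sets 7 and 8 run from 0.21 and 0.29 in the lowest group to -0.19 and -0.25 in the highest, while KO set 6 runs from -0.06 to 0.05.

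ALL stressors changed the RNA of 1137 genes in WT VSMC (6.26% of those tested, 632 higher and 505 lower) and of 585 genes in KO VSMC (3.22%, 254 or 1.4% higher and 331 or 1.82% lower) at an FDR under 0.05 in edgeR. With the GC and length correction, 850 genes were higher and 752 lower in WT, and 280 higher and 257 lower in KO. The WT counts rest on 4 sets and the KO counts on 3, so they are not directly comparable. The difference between the genotypes passed the same threshold for 7 genes, 0.0385% of those tested. The effect was more positive in WT for 4 genes (0.022%), Tnnt2, Neurl2, Smarcd3 and Map3k10, and more negative in WT for 3 (0.0165%), Aldh3a1, Ghr and Anxa8. All 7 also met a stricter rule built from the thresholds of the study, in which DESeq2 must call the gene too, with 3 FPM or more in a group and an absolute log2FC reaching 0.64. Without any test, the ratios of all WT sets lay above those of all KO sets for 3.73% of genes and below them for 3.65%. At an unadjusted p under 0.05 the effect was above KO in WT for 1268 genes (6.98%) and below it for 1047 (5.76%). After the GC and length correction these shares were 5.18% and 4.63%, and 5 genes passed (0.0275%), among them 3 of the 7, namely Anxa8, Aldh3a1 and Tnnt2, joined by Lox and Ppl. The count moved with single sets. It was 0 without set 2, 3, 4 or 7, 16 without set 1 (6 of the 7 genes among them), 704 without set 6 (all 7 among them) and 19 without set 8 (2 of the 7). The 7 became 0 with the 14 Control and ALL libraries alone, 0 with limma on paired differences, 142 with DESeq2 and 517 with no count filter. The KO count of 585 was 2644 without set 6, 12 without set 7, 64 without set 8 and 99 with the 14 libraries. The WT count of 1137 was 478 to 1321 with a set left out and 655 with the 14 libraries. Across 11583 genes, the WT effect and the KO effect had a Pearson r of 0.393 before and 0.5 after the correction.

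Tnnt2 (ENSMUSG00000026414, chromosome 1, 135763738 to 135780315), which encodes cardiac troponin T, moved in opposite directions. Its level in Control and ALL was 3.31 and 2.48 FPM in WT set 1, 15.1 and 45.1 in set 2, 20.7 and 28.5 in set 3 and 28.9 and 115.0 in set 4. In KO VSMC it was 185.0 and 112.0 FPM in set 6, 68.9 and 17.1 in set 7 and 83.5 and 33.1 in set 8. Thus 3 of 4 WT sets were higher and all 3 KO sets lower under ALL stressors, and the set ratios of the genotypes did not overlap. The log2FC was 1.07 ± 0.28 (SE, FDR = 0.0215) in WT and -1.34 ± 0.30 (FDR = 0.0197) in KO, and their difference 2.42 ± 0.41 (FDR = 0.0303), or 2.29 (FDR = 0.0401) after the GC and length correction.

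Aldh3a1 (ENSMUSG00000019102, chromosome 11, 61098363 to 61109247) encodes an aldehyde dehydrogenase that oxidizes aldehydes formed from lipids. Its Control and ALL levels were 12.1 and 6.78 FPM in WT set 1, 37.0 and 19.8 in set 2, 5.98 and 3.84 in set 3 and 21.7 and 5.9 in set 4. The KO levels were 79.4 and 130.0 FPM in set 6, 62.6 and 64.8 in set 7 and 75.4 and 102.0 in set 8. It was lower under ALL stressors in 4 of 4 WT sets and higher in 3 of 3 KO sets, where it also started above every WT library. The log2FC was -1.06 ± 0.18 (FDR = 0.000639) in WT and 0.40 ± 0.18 (FDR = 0.203) in KO, with a difference of -1.46 ± 0.25 (FDR = 0.0303) and -1.56 (FDR = 0.0179) after correction.

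Anxa8 (ENSMUSG00000021950, chromosome 14, 33807936 to 33822528), a calcium-dependent membrane-binding annexin, showed the difference least affected by the correction among the called genes. Its WT levels went from 64.2 to 36.2 FPM in set 1, from 30.9 to 15.1 in set 2, from 19.3 to 11.1 in set 3 and from 17.1 to 9.47 in set 4. In KO sets 6, 7 and 8 it went from 122.0 to 112.0, from 103.0 to 105.0 and from 60.7 to 44.2 FPM. All WT ratios lay below all KO ratios. The log2FC of -0.88 ± 0.08 (FDR = 9.19e-07) in WT and -0.18 ± 0.09 (FDR = 0.231) in KO differed by -0.70 ± 0.12 (FDR = 0.0303), and by -0.73 (FDR = 0.00447) after correction.

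Ghr (ENSMUSG00000055737, chromosome 15, 3347235 to 3613024), the growth hormone receptor, fell in every WT set, from 384 to 278 FPM, from 330 to 226, from 152 to 110 and from 328 to 183 in sets 1 to 4. Its KO levels went from 519 to 577, from 290 to 329 and from 274 to 307 FPM in sets 6 to 8, so that the ratios of the 3 KO sets were nearly the same. The WT log2FC was -0.58 ± 0.09 (FDR = 0.000228), the KO log2FC 0.17 ± 0.10 (FDR = 0.341) and the difference -0.75 ± 0.13 (FDR = 0.0303). After the GC and length correction the difference was -0.58 and no longer passed (FDR = 0.0995).

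The remaining called genes rose in WT and did not pass in KO. Map3k10 (ENSMUSG00000040390, chromosome 7, 27355799 to 27374055), a kinase upstream of JNK, went from 38.4 to 57.5, 39.2 to 61.5, 55.7 to 85.0 and 43.6 to 77.9 FPM in WT sets 1 to 4, and from 41.1 to 50.5, 49.8 to 40.2 and 42.2 to 38.9 FPM in KO sets 6 to 8. Smarcd3 (ENSMUSG00000028949, chromosome 5, 24795816 to 24829409), a subunit of the SWI/SNF chromatin remodelling complex, went from 21.3 to 25.5, 20.9 to 30.7, 22.9 to 33.2 and 21.3 to 33.6 FPM in WT, and from 33.6 to 32.1, 36.3 to 27.8 and 26.8 to 24.1 FPM in KO. Neurl2 (ENSMUSG00000039873, chromosome 2, 164672320 to 164675426), an adaptor of a ubiquitin ligase known from striated muscle, went from 10.4 to 13.1, 7.26 to 13, 10.4 to 13.4 and 5.27 to 11.3 FPM in WT, and from 9.63 to 8.84, 15.1 to 12.3 and 20.6 to 14.3 FPM in KO. Every WT ratio of these genes was above every KO ratio. The differences were 0.70 ± 0.13 for Map3k10 (FDR = 0.0307), 0.71 ± 0.12 for Smarcd3 (FDR = 0.0303) and 0.97 ± 0.18 for Neurl2 (FDR = 0.0377). After correction they were 0.41 (FDR = 0.151), 0.46 (FDR = 0.142) and 0.74 (FDR = 0.0563). Exons shared with other genes make up 19.1%, 43.4% and 45.9% of their lengths, and strand was not used in the counting, so part of these counts is uncertain.

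**Figure D2:**
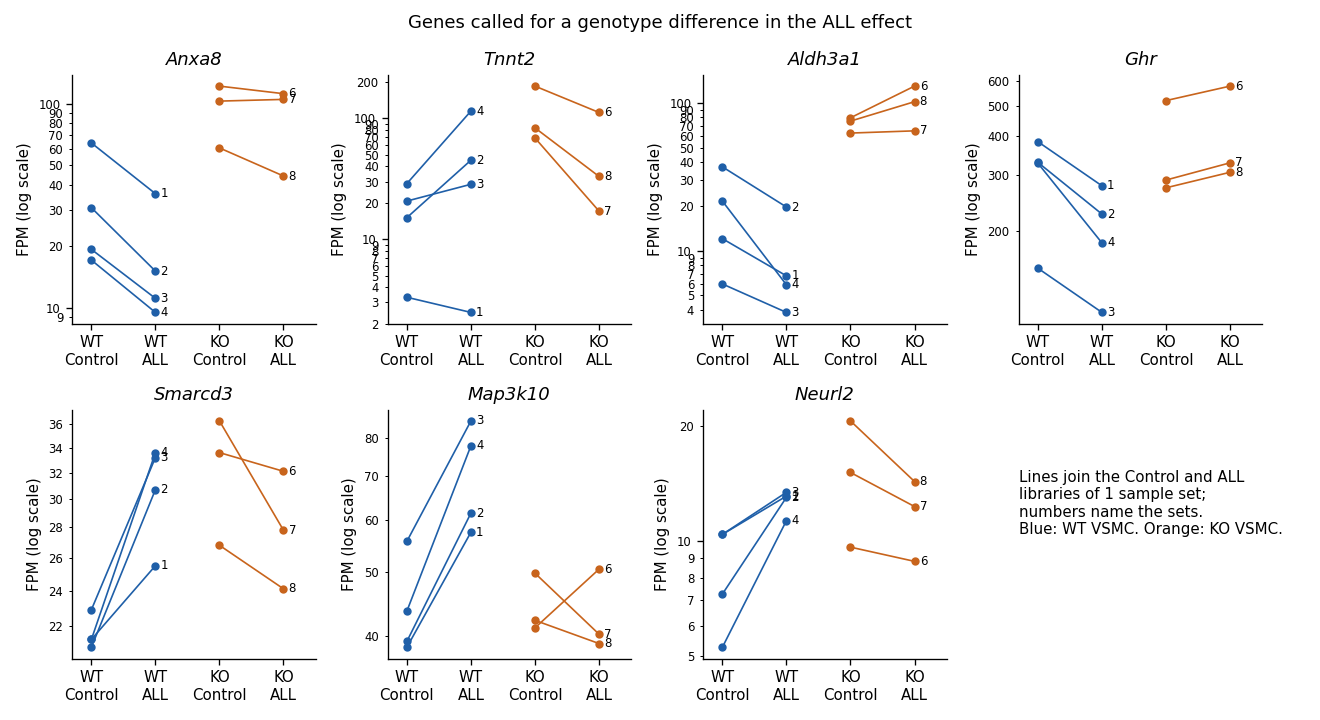
FPM (log scale) of the 7 genes called for a genotype difference, in Control and ALL libraries, with a line for each sample set, blue for WT and orange for KO. Aldh3a1 is lower under ALL stressors in all 4 WT sets and higher in all 3 KO sets, and Tnnt2 is higher in 3 of 4 WT sets and lower in all 3 KO sets.

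Lox, the lysyl oxidase that cross-links collagen and elastin, and Ppl, which encodes the cytoskeletal linker periplakin, passed only after the correction. Lox rose in WT (0.76 ± 0.10, FDR = 7.65e-05) and had a KO log2FC of 0.24 ± 0.12 (FDR = 0.236). The difference was 0.51 ± 0.15 (FDR = 0.219) before and 0.70 (FDR = 0.0401) after correction. Ppl fell in WT (-0.74 ± 0.13, FDR = 0.000757) and had a KO log2FC of 0.12 ± 0.13 (FDR = 0.631), a difference of -0.87 ± 0.18 (FDR = 0.0834) that became -0.92 (FDR = 0.0401).

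Among the genes next in order of p, none passed as called by edgeR. The differences in favour of WT included Pkp4, a junctional plakophilin (0.98 ± 0.19, FDR = 0.058), Nkd1, an inhibitor of Wnt signalling (1.17 ± 0.23, FDR = 0.0675), and Slc45a3 (0.86 ± 0.17, FDR = 0.0759). Differences in the other direction included Cd34, a sialomucin of progenitor, endothelial and fibroblast cells, which fell in WT (-1.22 ± 0.13, FDR = 9.37e-06) with a difference of -0.98 ± 0.20 (FDR = 0.0759). For Ndnf the difference was -1.31 ± 0.27 (FDR = 0.0759) and for Dio2, the deiodinase that activates thyroid hormone, -1.78 ± 0.39 (FDR = 0.0834). Tbx18, a transcription factor of the mural cell lineage, had log2FC values of -0.35 in WT and 0.41 in KO, with a difference of -0.75 ± 0.17 (FDR = 0.0834).

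Genes of the smooth muscle contractile apparatus had a median log2FC of 0.44 in WT and -0.04 in KO. The median difference over the 31 measured genes was 0.60, against -0.01 over all genes. The WT effect was above the KO effect at an unadjusted p under 0.05 for 17 of them and below it for 0, or 54.8% against 6.98% of all genes, and none passed after adjustment. In WT, 10 of the 31 rose (Mrtfa, Itga8, Mylk, Fhl2, Flna, Myl9, Acta2, Cnn1, Tagln, Pdlim7), where 3.48% of all genes did. In KO, 0 rose and 1, Smtn, fell (of all genes 1.4% rose and 1.82% fell), whereas after the GC and length correction 1 rose and 0 fell. The medians by set were 0.10, 0.55, 0.03 and 0.88 in WT sets 1 to 4 and 0.06, -0.09 and -0.13 in KO sets 6 to 8. WT sets 2 and 4 were thus high, while WT sets 1 and 3 lay near KO set 6 and the genotypes overlapped.

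The contractile genes had a median transcript GC share of 53.1%, between the medians of the lowest (43.2%) and highest (57.5%) of the 4 GC groups. After the GC and length correction the median difference was 0.37, and the WT effect was above KO for 10 of 31 genes (32.3% against 5.18%). Without set 7 the median was 0.54 with 9 genes above, without set 8 it was 0.56 with 11, and without WT set 4 it was 0.47 with 8, where all genes gave 4.46%, 5.02% and 4.25% above. The fibroblast marker sums given above did not overlap between the genotypes in Control, while the smooth muscle marker sums did, and their part in this difference was not tested.

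Mrtfa, which encodes the SRF coactivator MRTF-A, had the smallest p of the list. It went from 81.6 to 108.0, 67.1 to 93.5, 106.0 to 133.0 and 63.1 to 93.4 FPM in WT sets 1 to 4, and from 71.7 to 75.5, 71.8 to 59.1 and 66.5 to 54.9 FPM in KO sets 6 to 8. All WT ratios were above all KO ratios, with a difference of 0.60 ± 0.13 (p = 0.000107, FDR = 0.0834), or 0.37 after correction. Mylk, the kinase that phosphorylates myosin light chain to start contraction, went from 10.0 to 15.8, 12.2 to 29.8, 20.6 to 43.0 and 27.5 to 73.9 FPM in WT and from 12.6 to 12.5, 12.3 to 11.8 and 2.32 to 3.58 FPM in KO, a difference of 1.03 ± 0.30 (p = 0.00204, FDR = 0.197), or 0.94 after correction.

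Itga8, the integrin alpha chain of contractile smooth muscle, had the largest WT effect of the list. Its WT levels went from 15.7 to 41.8, 21.0 to 89.8, 18.5 to 36.7 and 29.9 to 167.0 FPM, and its KO levels from 18.3 to 27.5, 24.3 to 22.2 and 28.6 to 57.7 FPM. KO set 8 reached the ratio of WT set 3, so the genotypes overlapped, and the difference was 1.26 ± 0.34 (p = 0.00116, FDR = 0.162), or 1.44 after correction. For Acta2, smooth muscle alpha-actin, the log2FC was 1.06 ± 0.30 (FDR = 0.034) in WT and -0.04 ± 0.33 (FDR = 0.961) in KO, from a Control mean of 590 FPM in WT and 1120 FPM in KO. Csrp1, an SRF target that binds actinin, had a difference of 0.71 ± 0.22 (FDR = 0.229) and did not pass in either genotype.

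SRF acts through the CArG box, and stretches of promoters holding it are shown because its coactivator gene Mrtfa had the smallest p of the contractile list. RefSeq promoters on GRCm38.p6, from 250 bases before to 50 after each start, were matched by symbol for 28 of the 32 listed genes. A CArG box on either strand was present in 6 of them, Fhl2, Ldb3, Myl6, Myl9, Srf and Vcl, which is 21.4% against 1.81% of 27025 genes. The list was written from genes of the contractile state, which SRF controls, and holds Srf and Mrtfa themselves. A higher share than in all genes thus follows from how the list was chosen and says nothing about the genotype difference. The capitals below mark the CArG box, and each stretch lies before the start, read 5′ to 3′ on the strand of the gene. The match is to letters only, and no binding was measured.
Myl9 (chr2:156775253-156775362, plus strand): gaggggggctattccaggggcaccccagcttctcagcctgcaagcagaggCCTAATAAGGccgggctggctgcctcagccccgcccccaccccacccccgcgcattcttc
Myl6 (chr10:128493010-128493109, minus strand): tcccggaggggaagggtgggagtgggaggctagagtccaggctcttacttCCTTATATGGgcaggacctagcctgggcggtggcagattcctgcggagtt
Srf (chr17:46556185-46556294, minus strand): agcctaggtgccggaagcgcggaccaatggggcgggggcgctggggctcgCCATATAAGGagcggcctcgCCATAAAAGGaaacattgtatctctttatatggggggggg
Vcl (chr14:20929148-20929230, plus strand): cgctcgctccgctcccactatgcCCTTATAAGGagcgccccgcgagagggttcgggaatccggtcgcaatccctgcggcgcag
Fhl2 (chr1:43196798-43196907, minus strand): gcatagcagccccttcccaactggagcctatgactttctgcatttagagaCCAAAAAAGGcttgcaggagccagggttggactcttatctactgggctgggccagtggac

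The genes with these promoters did not all behave alike. Their values here are without the GC and length correction, with which the contractile count above KO was 10 rather than 17. Myl9, a regulatory myosin light chain, rose in WT (0.81 ± 0.22, FDR = 0.0284) with a difference of 0.86 ± 0.34 (p = 0.0174), or 0.52 to 1.14 with a set left out. Fhl2, an SRF cofactor, rose in WT (0.70 ± 0.18, FDR = 0.021) with a difference of 0.79 ± 0.28 (p = 0.00863). Myl6 and Srf had differences of 0.72 ± 0.24 (p = 0.00558) and 0.47 ± 0.17 (p = 0.00984) without passing in WT. For Vcl, the adhesion protein vinculin, the log2FC was 0.60 ± 0.23 in WT and 0.35 ± 0.27 in KO, and the difference of 0.25 ± 0.36 did not pass even unadjusted (p = 0.497).

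Receptors and G protein signalling genes of the humoral stressors, 40 measured, had a median difference of 0.08. The WT effect was above KO at an unadjusted p under 0.05 for 11 (27.5% against 6.98% of all genes) and below it for 4 (10.0% against 5.76%). After correction it was above for 10 (25.0% against 5.18%) and below for 0 (against 4.63%), and without set 7 above for 7 (17.5% against 4.46%) and below for 2 (5.0% against 3.57%). Agtr1b, one of the 2 mouse angiotensin II type 1 receptor genes, led the list. It went from 2.05 to 3.26, 3.48 to 11.4, 2.25 to 4.5 and 3.78 to 15.1 FPM in WT and from 1.13 to 1.38, 2.09 to 1.47 and 4.65 to 4.76 FPM in KO, with no overlap of the ratios. The log2FC of 1.39 ± 0.21 (FDR = 0.00025) in WT and -0.05 ± 0.26 (FDR = 0.936) in KO differed by 1.44 ± 0.34 (p = 0.000273, FDR = 0.11), and by 1.60 (FDR = 0.0815) after correction.

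Agt, which encodes angiotensinogen, fell in KO (-1.03 ± 0.21, FDR = 0.0103) and had a WT log2FC of 0.07 ± 0.17 (FDR = 0.894), a difference of 1.10 ± 0.27, or 1.17 after correction. In KO sets 6, 7 and 8 it went from 1.38 to 1.13, 20.9 to 6.79 and 50.6 to 27.8 FPM. Gnas, the stimulatory G protein alpha subunit, rose in WT (0.35 ± 0.09, FDR = 0.0178) and so did Rgs3, a regulator that shortens G protein signals (0.52 ± 0.12, FDR = 0.00947). Their differences were 0.56 ± 0.14 (p = 0.000386) and 0.66 ± 0.18 (p = 0.00161).

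All 33 genes of G2 and mitosis had a positive difference, with a median of 0.62, or 0.66 after the correction. The effect in WT was above KO for 11 (33.3% against 6.98%) and below for 0 at an unadjusted p under 0.05. In WT, 10 rose (Aurkb, Hmmr, Prc1, Kif11, Dlgap5, Cenpf, Mki67, Ccnb1, Top2a, Cenpe), where 3.48% of all genes did. In KO 0 were called in either direction, where 1.4% of all genes rose and 1.82% fell. By set the medians were 0.47, 0.79, 0.17 and 0.96 in WT and -0.06, -0.55 and 1.11 in KO sets 6 to 8. KO set 8 was thus above every WT set, though after the correction it was at 0.92, below WT set 4 at 1.01. The result depended on single KO sets, since without set 7 the median was 0.27 with 1 gene above (3.03% against 4.46% of all genes) and without set 8 it was 1.09 with 28 above (84.8% against 5.02%).

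Aurkb, the kinase of the chromosomal passenger complex, went from 2.78 to 4.21, 1.77 to 4.36, 0.496 to 0.934 and 0.763 to 2.95 FPM in WT and from 15.9 to 18.4, 7.92 to 3.2 and 1.5 to 1.96 FPM in KO. KO sets 6 and 7 started above every WT Control, and KO set 8 within their range. The difference was 1.46 ± 0.43 (p = 0.00233, FDR = 0.208), or 1.37 after correction. Kif11, the motor that separates spindle poles, had a difference of 1.13 ± 0.41 (p = 0.0123), and Hmmr and Prc1, spindle proteins, 1.15 ± 0.38 and 0.96 ± 0.35. Genes of DNA replication and S phase had a median difference of 0.20 over 34 genes with 4 above (11.8% against 6.98% of all genes), or 2 after correction (5.88% against 5.18%).

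Cholesterol synthesis genes and other targets of the sterol-sensing factor SREBP2 rose in WT for 16 of 26 members, where 3.48% of all genes did, and in KO for 0, where 1.4% of all genes did. The median log2FC was 0.54 in WT and 0.21 in KO, and the median difference 0.42 both before and after correction. The effect in WT was above KO for 10 (38.5% against 6.98% of all genes) and below for 1 at an unadjusted p under 0.05. The set medians were 0.66, 0.67, 0.78 and 0.26 in WT and 0.13, -0.10 and 0.56 in KO, so KO set 8 lay within the WT range. Without set 7 the median was 0.28 with 4 genes above (15.4% against 4.46% of all genes), or 1 with the correction as well (3.85% against 3.94%), and without set 8 it was 0.55 with 15 (57.7% against 5.02%).

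Sqle, which encodes squalene epoxidase, an oxygen-dependent step of the pathway, went from 67.5 to 97.2, 36.7 to 71.3, 66.2 to 113.0 and 18.9 to 48.3 FPM in WT and from 158.0 to 169.0, 88.4 to 67.3 and 52.6 to 73.7 FPM in KO. The ratios did not overlap, although WT set 1 at 0.52 and KO set 8 at 0.48 were close. The log2FC was 0.89 ± 0.13 (FDR = 0.000143) in WT and 0.06 ± 0.14 (FDR = 0.854) in KO, and the difference 0.84 ± 0.19 (p = 0.000197, FDR = 0.101). The mevalonate kinases Pmvk and Mvk rose in WT as well (0.54 ± 0.13 and 0.43 ± 0.11) with differences of 0.66 ± 0.20 and 0.53 ± 0.17. Tm7sf2, a sterol reductase, had a difference of 0.88 ± 0.26, or 0.52 to 1.12 with a set left out, and did not pass in either genotype. A sterol regulatory element (TCACNCCAC, either strand) was found in 1 of the 18 promoters matched, that of Hmgcs1, and in 1.44% of all genes. It is printed with the element in capitals.
Hmgcs1 (GRCm38.p6, chr13:119690164-119690272, plus strand): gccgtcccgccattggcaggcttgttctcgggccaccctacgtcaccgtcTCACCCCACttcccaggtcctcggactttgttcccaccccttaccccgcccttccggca
Hmgcs1, the synthase at the head of the pathway, itself had a difference of 0.13 ± 0.24 (p = 0.595).

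Among 37 genes of fatty acid oxidation and other PPAR targets 13 rose in WT and 16 in KO, where 3.48% and 1.4% of all genes did, with median effects of 0.23 and 0.26. After the GC and length correction 18 rose in WT and 17 in KO, where 850 and 280 of the 18164 genes did. The median difference was -0.07, and -0.12 to 0.00059 with a set left out (0.00059 without set 1 and -0.02 without set 4). At an unadjusted p under 0.05 the WT effect was above KO for 4 (10.8% against 6.98% of all genes) and below for 8 (21.6% against 5.76%). After correction it was 3 (8.11% against 5.18%) and 10 (27.0% against 4.63%). Cpt1a, the carnitine palmitoyltransferase that admits fatty acids to mitochondria, rose in both, by 0.53 ± 0.12 (FDR = 0.0087) in WT and 1.13 ± 0.14 (FDR = 0.000216) in KO. Its WT levels went from 130 to 269, 171 to 233, 219 to 330 and 256 to 254 FPM and its KO levels from 111 to 254, 90.4 to 202 and 88.6 to 179 FPM. KO Controls thus started below every WT Control, the ratio of WT set 1 lay among those of KO, and the difference was -0.60 ± 0.19 (p = 0.00376, FDR = 0.227).

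Ucp2, a mitochondrial carrier protein, rose in KO only as tested within each genotype, from 0.33 to 1.82, 0.225 to 1.47 and 0.0911 to 0.775 FPM. In WT it went from 3.45 to 3.67, 5.22 to 5.11, 0.131 to 0.519 and 3.3 to 3.35 FPM. The fitted difference of -2.34 ± 0.49 (p = 6.98e-05, FDR = 0.0834) rests on low counts in KO. The difference for Etfa, an electron transfer flavoprotein subunit, was -0.38 ± 0.10 (p = 0.00123).

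Interferon-stimulated genes fell in WT, 15 of 31 against 2.78% of all genes, and in KO 0 fell, against 1.82%. The median log2FC was -0.71 in WT and -0.21 in KO. Their difference had a median of -0.37 (-0.35 after correction), and the effect in WT was below KO for 4 genes (12.9% against 5.76% of all genes) and above for 0 (against 6.98%) at an unadjusted p under 0.05. Set medians were -0.96, -1.11, -0.79 and 0.08 in WT and 0.03, -0.27 and -0.43 in KO. WT set 4 was above all KO sets, and without it the median was -0.54 with 18 genes (58.1% against 3.44% of all genes) below.

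Gbp3, a guanylate-binding protein induced by interferon, went from 33.6 to 16.1, 46.6 to 13.7, 10.9 to 5.26 and 11.2 to 10.4 FPM in WT and from 4.6 to 4.86, 3.3 to 3.43 and 3.37 to 5.95 FPM in KO. The KO Controls lay below every WT Control, the ratios did not overlap, and the difference was -1.31 ± 0.47 (p = 0.0098, FDR = 0.267). Cmpk2 (-1.16 ± 0.37), Usp18, which removes ISG15 from proteins (-0.90 ± 0.37), and Irf1, a transcription factor (-0.51 ± 0.20), were the other members below at an unadjusted p under 0.05. Of 29 chemokine, cytokine and adhesion genes, 0 were above and 0 below (against 6.98% and 5.76% of all genes), with a median difference of -0.14. At the FDR threshold 0 were called in either genotype, where 6.26% of all genes were in WT and 3.22% in KO. The macrophage and leukocyte markers given above were more spread in WT than in KO Controls, and their part was not tested.

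**Figure D3:**
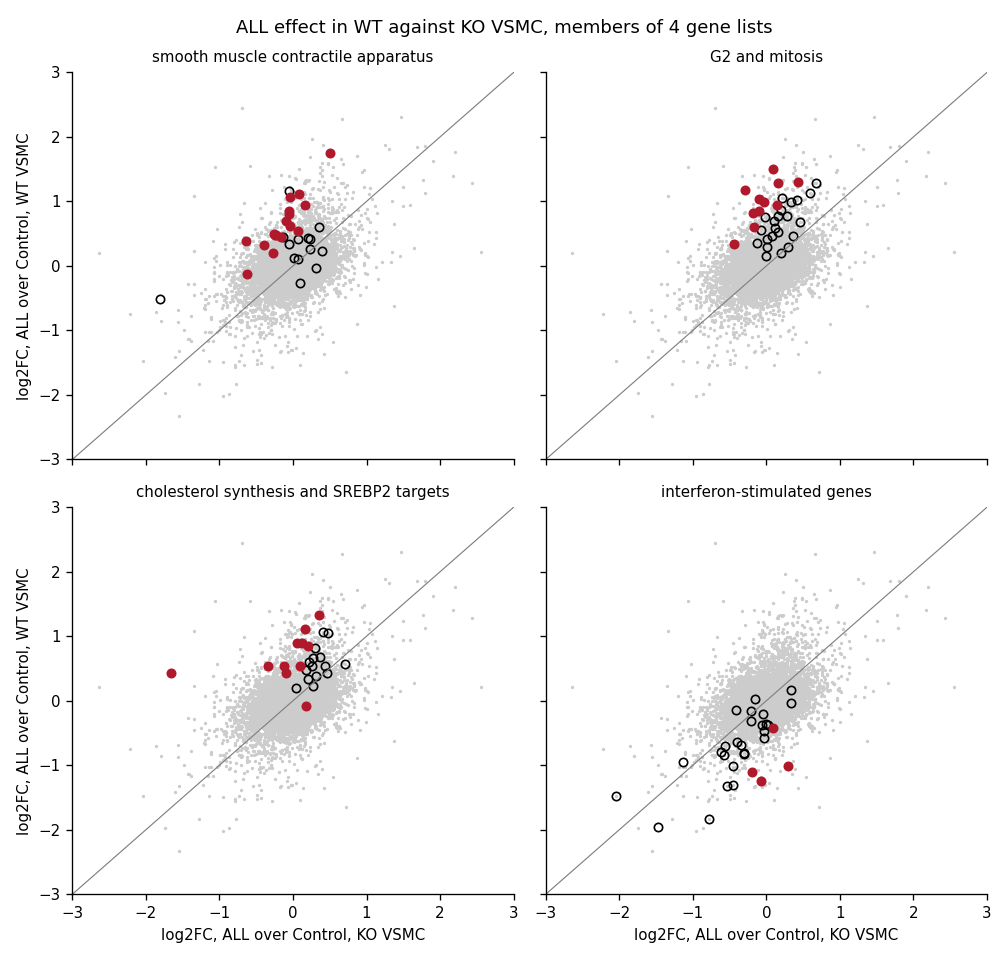
Log2FC of ALL over Control in WT VSMC (vertical axis) against KO VSMC (horizontal axis) for members of 4 gene lists, filled red where the genotype difference had an unadjusted p under 0.05 and open otherwise, over the 12557 genes with at least 3 FPM in a group in grey. The line marks equal effects, and 1 interferon-stimulated gene and 4 grey genes lie beyond the axes. All 33 G2 and mitosis genes lie on the WT side of the line, and 17 of 31 contractile genes are red.

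Matrix genes changed in both directions. Among 35 matricellular proteins and proteoglycans the WT effect was above KO for 5 (14.3% against 6.98% of all genes) and below for 3 (8.57% against 5.76%) at an unadjusted p under 0.05. After correction the counts were 7 (20.0% against 5.18%) and 2 (5.71% against 4.63%), but without set 7 the balance turned to 1 above (2.86% against 4.46%) and 6 below (17.1% against 3.57%), with a median of -0.07 rather than 0.10. Tnc, tenascin C of injured arteries, went from 187 to 417, 153 to 444, 293 to 654 and 157 to 690 FPM in WT and from 73.3 to 82.2, 645 to 641 and 78.2 to 172 FPM in KO. The ratios did not overlap, though KO set 8 at 1.13 was close to WT set 1 at 1.15, and the difference was 1.10 ± 0.28 (p = 0.000582, FDR = 0.128). Fbln5, which helps assemble elastic fibres, had a difference of 0.61 ± 0.21 (p = 0.00801), or 0.34 to 0.86 with a set left out.

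Fbn1, the microfibril protein fibrillin, fell in WT (-0.59 ± 0.14, FDR = 0.0113), as did Vcan, the proteoglycan versican (-0.84 ± 0.19, FDR = 0.00756), with differences of -0.70 ± 0.22 and -0.93 ± 0.29. Of 35 matrix enzymes and inhibitors 3 were above (8.57% against 6.98%) and 5 below (14.3% against 5.76%), or 1 (2.86% against 4.46%) and 6 (17.1% against 3.57%) without set 7 and 2 and 1 without set 4 (5.71% against 4.25% and 2.86% against 3.44%). The balance turned without set 6, with 6 above (17.1% against 11.4%) and 4 below (11.4% against 11.1%). Without set 1 it was 5 (14.3% against 8.41%) and 4 (11.4% against 7.08%). Among those below with all sets were the lysyl oxidase Loxl2 (-0.48 ± 0.14) and the gelatinase Mmp2 (-0.45 ± 0.17). Of 22 collagen genes 0 were above and 2 below (9.09% against 5.76%), with a median of -0.11. After correction 4 were below (18.2% against 4.63%) and the median was -0.23, and 4 were below without set 7 (18.2% against 3.57%) and 1 without set 8 (4.55% against 3.31%, near the share of all genes). Col5a3, with the lowest p, fell in both genotypes (-1.47 ± 0.16 in WT, FDR = 1.05e-05, and -0.74 ± 0.20 in KO, FDR = 0.0431).

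In the TGF-beta, BMP and Id list of 30 genes the WT effect was above KO for 10 (33.3% against 6.98% of all genes) and below for 4 (13.3% against 5.76%), with a median difference of 0.22. After correction the counts were 8 and 2 (against 5.18% and 4.63%). Without set 7 they were 3 (10.0% against 4.46%) and 4 (13.3% against 3.57%), and the median was 0.10. Id3, an inhibitor of differentiation downstream of BMP, rose in WT (0.59 ± 0.15, FDR = 0.0171) and had a difference of 0.83 ± 0.23 (p = 0.0013). Id4 and Smad6 had differences of 1.18 ± 0.31 and 0.56 ± 0.18. Tgfb1 fell in KO (-0.53 ± 0.11, FDR = 0.0101), and its difference of 0.44 ± 0.14 was 0.13 after the GC and length correction.

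Of 25 receptors, ligands and feedback genes of the ErbB family, 1 was above and 1 below at an unadjusted p under 0.05 (4.0% each, against 6.98% and 5.76% of all genes). The median difference was -0.15, but -0.06 after correction and 0.03 without set 8. Hbegf, the EGFR ligand shed in transactivation, had log2FC values of 0.25 ± 0.17 in WT and -0.41 ± 0.19 in KO, neither of which passed, and a difference of 0.65 ± 0.25 (p = 0.0164, FDR = 0.292). Of 37 feedback and immediate early genes of the ERK pathway 2 were above and 2 below (5.41% each), shares near those of all genes, so the members below are described singly. Spry4, a feedback inhibitor, rose in WT (0.94 ± 0.23, FDR = 0.0119), as did Ier5 (0.54 ± 0.13, FDR = 0.0128), while Klf4, a repressor of contractile genes, fell (-0.58 ± 0.10, FDR = 0.00103). Klf4 levels went from 244 to 202, 195 to 120, 168 to 104 and 166 to 104 FPM in WT and from 224 to 206, 147 to 145 and 101 to 116 FPM in KO, a difference of -0.59 ± 0.15 (p = 0.000885, FDR = 0.147) with no overlap of the ratios.

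Targets of NRF2 and the aryl hydrocarbon receptor included Aldh3a1, the called gene of this list, and had a WT effect below KO for 6 of 29 (20.7% against 5.76% of all genes) and above for 2 (6.9% against 6.98%). Hmox1, heme oxygenase, rose in both genotypes, by 0.30 ± 0.09 (FDR = 0.0478) in WT and 0.89 ± 0.10 (FDR = 0.000185) in KO. Its levels went from 246 to 320, 106 to 110, 178 to 268 and 81.5 to 91.7 FPM in WT and from 98.6 to 178, 139 to 265 and 65.0 to 121 FPM in KO. The ratios did not overlap, and the difference was -0.59 ± 0.14 (p = 0.000228, FDR = 0.102). Tiparp, a feedback gene of the aryl hydrocarbon receptor, had -0.71 ± 0.21 (p = 0.00217). Of 25 YAP-TEAD targets, 2 (8.0%) were above and 6 (24.0%) below, against 6.98% and 5.76% of all genes, and without set 7 it was 2 and 2 (8.0% each against 4.46% and 3.57%). F3, tissue factor, and Cavin2, a caveolar protein, rose in KO (0.52 ± 0.11 and 0.64 ± 0.10) and had differences of -0.56 ± 0.15 and -0.51 ± 0.14.

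The shares of all genes to set beside the remaining lists were 6.98% above and 5.76% below with all sets, and 5.18% and 4.63% after correction. They were 8.41% and 7.08% without set 1, 5.65% and 4.31% without set 2, 6.87% and 5.39% without set 3 and 4.25% and 3.44% without set 4. For the KO sets they were 11.4% and 11.1% without set 6, 4.46% and 3.57% without set 7 and 5.02% and 3.31% without set 8. Of 26 genes of the PDGF, FGF and VEGF systems 4 were above and 1 below, or 1 (3.85%) and 2 (7.69%) without set 7 with the median turning from 0.08 to -0.02, with Fgfr2 at 0.93 ± 0.24 and Pdgfb at -1.56 ± 0.49. All 32 ribosomal protein genes had a positive difference, with a median of 0.26 that was 0.15 after correction and 0 rather than 3 genes (9.38%) above. The ribosomal count was 13 without set 1 (40.6%), 12 without set 6 (37.5%) and 0 without set 8. For oxidative phosphorylation subunits the median was 0.17 with 4 of 28 (14.3%) above, a count that was 11 without set 1 (39.3%), 8 without set 6 (28.6%) and 0 without set 8. For glycolysis it was 0.10 with 2 of 25 (8.0%), and 0.0087 with 1 after correction. The other lists held few such genes, and their counts moved as single sets were left out in turn. LXR targets had 3 of 12 above (25.0%) and 0 below, with 1 to 5 above (8.33% to 41.7%) and 0 to 1 below over these fits, and 2 and 0 after correction. Fatty acid synthesis had 2 of 17 above (11.8%) and 1 below (5.88%), with 0 to 3 and 0 to 2, and 0 and 1 after correction. The unfolded protein and integrated stress response had 3 of 27 above (11.1%) and 2 below (7.41%), with 1 to 5 and 0 to 3, and 1 and 1 after correction. Annexins and S100 proteins had 2 of 18 above (11.1%) and 1 below (5.56%), with 0 to 5 and 1 to 2, and 2 and 2 after correction. Insulin and imprinted growth genes had 0 of 21 above and 2 below (9.52%), with 0 to 4 and 1 to 5, and 1 and 4 after correction.

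**Figure D4:**
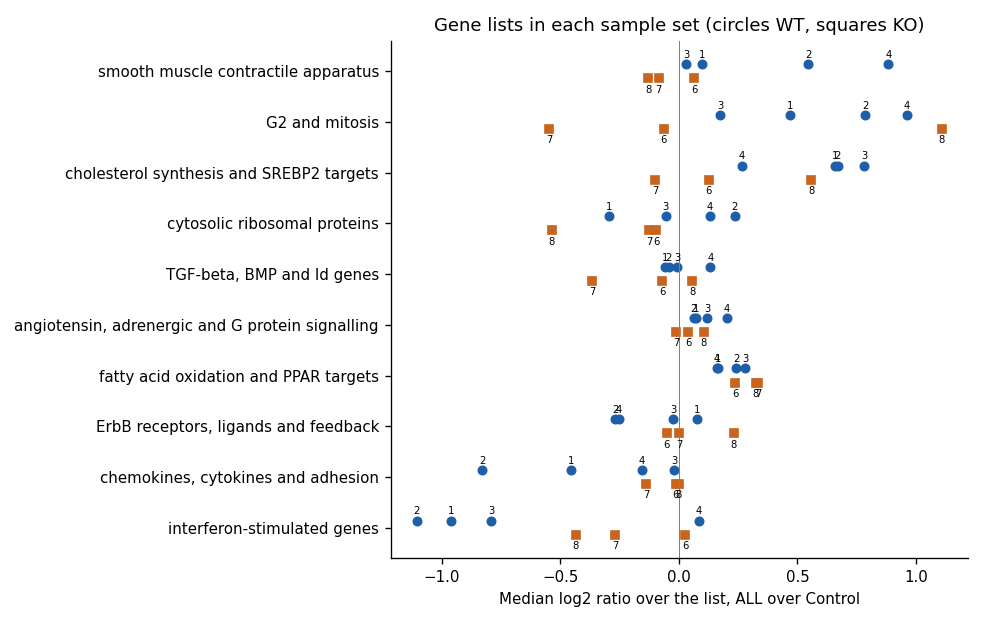
Median log2 ratio of ALL over Control over the members of 10 gene lists (horizontal axis), in each of the 4 WT sets (blue circles) and 3 KO sets (orange squares), with the set numbers printed. For G2 and mitosis KO set 8 lies at 1.11, above all WT sets before the correction, and for interferon-stimulated genes WT set 4 lies at 0.08, above all KO sets.

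Whether the genotype difference belonged to one class of stressor was read from HG + FFA and AII + NA, which share Control libraries with ALL within each genotype. With edgeR, 0 genes passed for the genotype difference in HG + FFA and 0 in AII + NA, with 2196 (12.1%) and 4168 (22.9%) at an unadjusted p under 0.05. These counts are without the GC and length correction, and under AII + NA r with GC share was -0.528 in KO set 7 and -0.398 in KO set 8. They are therefore not read as a larger genotype dependence of either stressor pair. The contractile list had median log2 effects of -0.06 in WT and -0.10 in KO for HG + FFA, 0.49 and 0.15 for AII + NA, and 0.44 and -0.04 for ALL. For G2 and mitosis the medians were 0.71 and 0.31 for HG + FFA, 0.20 and -0.21 for AII + NA, and 0.77 and 0.12 for ALL. Cholesterol genes had 0.46 and 0.13, 0.19 and -0.08, and 0.54 and 0.21 in the same order. Interferon-stimulated genes had -0.60 and -0.26, -0.17 and -0.16, and -0.71 and -0.21. With the GC and length correction, the contractile medians were 0.46 in WT and 0.23 in KO for AII + NA, and 0.41 and 0.05 for ALL. Those of the cholesterol list were then 0.45 and 0.05 for HG + FFA, and 0.56 and 0.17 for ALL. The WT medians of the contractile list under ALL stressors were thus near those of AII + NA, and those of the other 3 lists nearer to HG + FFA, as descriptions without a test.

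The called genes did not share 1 pattern across the stressors. Tnnt2 had log2FC values of -0.13 in WT and -1.52 in KO for HG + FFA and 1.08 and -0.26 for AII + NA. Aldh3a1 had -0.46 and 0.42 for HG + FFA and 0.07 and -0.45 for AII + NA. Anxa8 had -0.60 and -0.23 for HG + FFA and -0.15 and -0.20 for AII + NA. Ghr had -0.27 and 0.17 for HG + FFA and -0.18 and 0.18 for AII + NA. Map3k10 had 0.14 and 0.05 for HG + FFA and 0.44 and -0.0049 for AII + NA. Smarcd3 had 0.14 and -0.21 for HG + FFA and 0.30 and -0.19 for AII + NA. Neurl2 had 0.23 and -0.31 for HG + FFA and 0.29 and -0.61 for AII + NA. When ALL was set against AII + NA rather than Control, the genotype difference passed for 2 genes (0.011%), Anxa8 (-0.76, FDR = 0.0102) and Aldh3a1 (-1.99, FDR = 0.000878). Against HG + FFA it passed for 0, with 1017 (5.6%) at an unadjusted p under 0.05. Departure of ALL from the sum of both single effects passed for 0 genes in WT (239, 1.32%, at an unadjusted p under 0.05) and for 438 in KO (2.41%), but for 0 in KO after the GC and length correction (3512, 19.3%, at an unadjusted p under 0.05), and its difference between genotypes passed for 0 (2712, 14.9%).

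**Figure D5:**
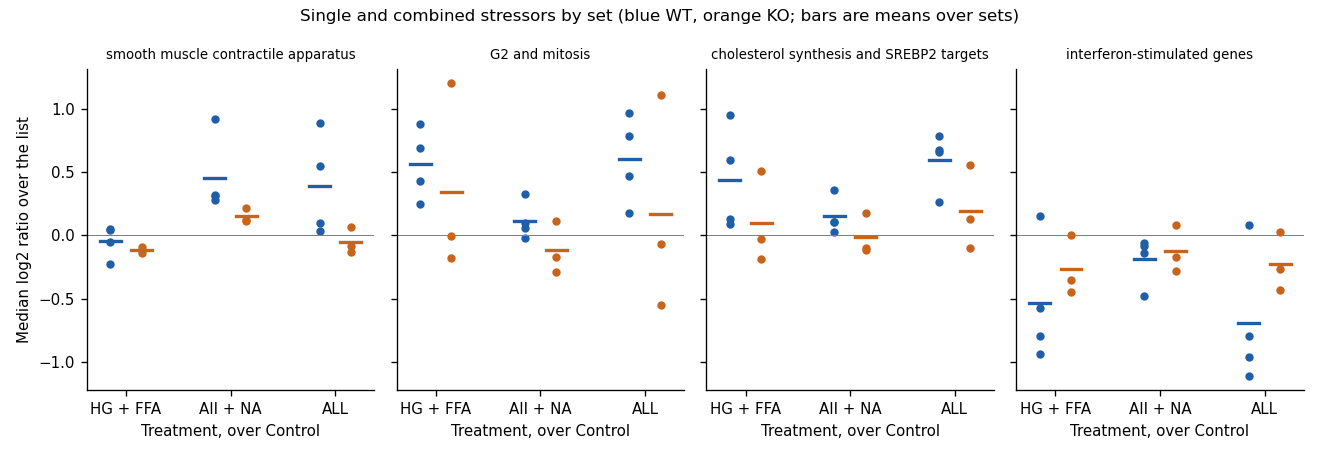
Median log2 ratio over the list (vertical axis) for HG + FFA, AII + NA and ALL stressors over Control, for 4 gene lists, with a point for each sample set, blue for WT and orange for KO, and bars at the means over sets. For the contractile list, WT sets lie at -0.23 to 0.05 and KO sets at -0.14 to -0.09 under HG + FFA, and WT sets at 0.28 to 0.92 and KO sets at 0.11 to 0.21 under AII + NA.

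Genes that ALL stressors changed in EC gave a list chosen outside the VSMC libraries. EC and VSMC cultures of some animals are related, since the labels give 4 animals for both. Of 123 genes with FDR under 0.05 and an absolute log2FC of at least 0.64 in EC, 121 were measured in VSMC, where 115 had the same direction in WT and 116 in KO. No share of all genes stands beside these direction counts, which are descriptions only. In the direction of EC their median effect was 0.60 in WT and 0.68 in KO. The median difference was -0.06, with 0 genes called, where 0.0385% of all genes were. At that share a count of 0 among 121 genes says little about the list. Set medians were 0.55, 0.61, 0.39 and 0.45 in WT and 0.29, 0.80 and 0.58 in KO, which overlap.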

How the data were processed

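The authors mapped paired-end poly(A) RNA-seq reads to mm39 with HISAT2 2.1.0 and deposited raw read counts per gene from featureCounts, run on exons with multi-mapping reads included and no strand option stated. Counts were used as deposited; 56310 of 56953 identifiers matched GENCODE annotation on GRCm39, which gave symbols and positions. The test was edgeR 4.0.16 quasi-likelihood (R 4.3.3) with TMM library sizes and the filterByExpr filter, on the 28 libraries of the 7 complete sets, all 4 conditions included to share the spread, with set as block and condition within genotype (15 residual degrees of freedom). KO set 5 has no ALL library here and was left out. P-values were adjusted over 18164 genes by Benjamini-Hochberg, and the threshold was 0.05. Errors of log2FC are SE. FPM are counts per 1000000 TMM-scaled reads, and per-set ratios used log2(FPM + 0.5). The GC and length correction subtracted from each library a spline (5 degrees of freedom each) of its deviation on transcript GC share and log length. It was chosen after seeing the data. The members and gene lists were chosen with earlier results of these data known. A count beside a list is of genes at an unadjusted p under 0.05, set against the share of all genes, and is no test of the list. Named genes were Egfr, those past the threshold, the 12 smallest p in each direction at 3 FPM or more, and up to 4 of each of 25 lists by p, and the text gives a part of them. List members named only as rising or falling within a genotype, or for a promoter motif, were chosen after their values were seen.

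Per the labels, a set number marks 1 animal. Libraries of the same set deviated together from their group means (mean r = 0.806 over 42 pairs, 0.429 to 0.919). Between different sets r reached 0.423, and its mean there (-0.304) is made negative by the centring. No 2 libraries of a group agreed within sampling noise. The test of the genotype difference in the ALL effect was also run on simulated counts of 17935 genes, with 100 genes changed at each size. It recovered 62% of differences of 0.75 and 98% of 1.5 (log2), and 10 of its 170 calls were false. The real data gave far fewer calls, and the p cutoff of the adjustment is stricter with fewer calls. The recovered shares are therefore not the power of the test on the real data. DESeq2 1.42.0 and limma 3.58.1 were alternatives. Promoters came from RefSeq on GRCm38.p6, by symbol, with no coordinates converted.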

Additional observations from a re-analysis of the deposited data

Results flagged for a closer look

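In 4 WT sets, 1 set stood far from the other 3 in its log2 ratio of ALL over Control for 7 of the 94 genes and lists examined, where chance gives about 1 in 20 for independent items. These items are not independent, since they share the same libraries and many genes were chosen by a small p, so that rate is only a rough guide. Set 1 was apart for Lox (0.43), Pkp4 (0.18), Slc45a3 (0.76), Ndnf (-1.36) and Klf4 (-0.28). Set 3 was apart for Ucp2 (0.69), at under 1 FPM in both libraries, and set 4 for Usp18 (0.0339), which had its other 3 WT ratios well below 0.

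The effect of ALL stressors differed between WT and KO, by the test of the difference itself, for Anxa8 (-0.70), Tnnt2 (2.42), Aldh3a1 (-1.46), Ghr (-0.75), Smarcd3 (0.71), Map3k10 (0.70) and Neurl2 (0.97), in log2 units as WT minus KO. These kept their direction in all 15 alternatives each. Anxa8 passed the threshold in 8 of the 15, Aldh3a1 in 7, Tnnt2 and Smarcd3 in 6, Ghr and Neurl2 in 5 and Map3k10 in 4.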

How the results depend on the processing

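The 7 genes called for the genotype difference became 8 with DESeq2 size factors in edgeR, 5 with the GC and length correction, 2 with all 31 VSMC libraries, 0 with the 14 Control and ALL libraries alone, 0 with limma on paired differences, 142 with DESeq2 and 517 with no count filter. Leaving out a set gave 0 to 704, and 0 to 41 with the correction (15 without set 6). Without the replicate block that pairs the libraries of a set, the counts were 0 for the difference, 0 in WT and 0 in KO. The WT count of 1137 was 655 with 14 libraries and 684 with limma, 478 to 1321 with a set left out and 742 to 1788 with the correction as well. The KO count of 585 was 99 with 14 libraries, 150 with all 31, 117 with limma, 1384 with no filter and 1287 with DESeq2, 12 to 2644 with a set left out (12 without set 7, 64 without set 8) and 42 to 1250 with the correction as well (367 without set 3, 110 without set 8). The median for angiotensin, adrenergic and G protein signalling, 0.08, was 0.20 without set 8, and 0.0438 to 0.20 over all sets left out. All other list medians stayed within the spread between sets, which was wide (for G2 and mitosis an SD of 0.35 in WT and 0.85 in KO), so this does not show stability. The G2 and mitosis median ran from 0.27 to 1.09. Some medians changed sign, among them YAP-TEAD targets (-0.19 to 0.06) and matrix proteoglycans (-0.07 to 0.28). Of the genes whose difference was followed, only Vcl and Hmgcs1, neither of them called, reversed with a set left out. Vcl ran from -0.19 to 0.76, negative without set 4 or 6, and Hmgcs1 from -0.0282 to 0.37, negative without set 7. Other printed differences of single genes kept their sign but moved with a set left out, among them Aurkb (0.91 to 1.81) and Prc1 (0.61 to 1.30). Smad6 ran from 0.36 to 0.74, Cavin2 from -0.64 to -0.33 and Pdgfb from -2.03 to -1.02. The causes were not tested. The precision is limited by 3 KO sets, and levels under 1 FPM rest on few reads.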
